A study of Homo sapiens with 4 samples.

Results

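The genes described here encode the brakes on the B-cell receptor: 6 inhibitory receptors (CD22, CD72, FCGR2B, PECAM1, CD300A and LAIR1) and 3 phosphatases (PTPN6, INPP5D and PTPN22). They were chosen by gene symbol, as all probe sets of the array annotated to 1 of these 9 symbols. This gave 25 of 49386 probe sets and 9 of 18239 genes. The 9 genes were chosen with earlier results of these data known, so their counts beside the shares of all genes only describe them. RNA was measured on 4 arrays from 2 human cell lines of mantle cell lymphoma (MCL), a B-cell malignancy that overexpresses cyclin D1. The groups were untreated REC-1 cells, labelled as a 48 h control, REC-1 cells exposed to CC-292 for 48 h, untreated Z138 cells, whose label gives no time, and Z138 cells exposed to CC-292 for 48 h. CC-292 is a covalent inhibitor of Bruton tyrosine kinase (BTK). The treatment protocol states 1 uM of it whereas the array titles read 1 mM. Each group was 1 array, so no group has a replicate, each line stands for itself, and a difference between 2 single arrays has no test. Averages over both lines, or over both treatments, leave 1 residual degree of freedom and were tested with limma.

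When antigen crosslinks the B-cell receptor, the kinase LYN phosphorylates not only the activating chains but also tyrosines in short inhibitory motifs (ITIMs) in the tails of receptors such as CD22, CD72 and FCGR2B. The tyrosine phosphatase SHP-1, encoded by PTPN6, docks on the tails of CD22 and CD72 and removes phosphate from nearby signalling proteins. The lipid phosphatase SHIP-1, encoded by INPP5D, is recruited mainly by FCGR2B and degrades the membrane lipid that PI3K makes and that brings BTK, the target of CC-292, to the membrane.

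Values are log2 probe-set signals, and differences are CC-292 minus control within a line, or REC-1 control minus Z138 control, so that 1 is a 2-fold difference. Each gene is represented by its brightest probe set, the one with the highest mean over the 4 arrays. The spread of a difference over the gene's kept probe sets is given as an SD, which holds no error between cultures. Pooled over 6761 genes with several probe sets, this SD was 0.31 for CC-292 in REC-1, 0.25 for CC-292 in Z138 and 0.48 between the controls. Genes and probe sets were kept when at least 1 array lay at or above log2 4.63, the median over the whole data set, called the brightness minimum here. All 9 genes were kept, among 10823 in all, and 21 of the 25 probe sets. LAIR1 passed only through its CC-292 arrays, and CD300A only through its REC-1 arrays. Signals of different genes depend on their probes, so levels are compared only within a probe set.

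Array medians ran from 4.63 to 4.64, and the medians of nonspecific background probes from 3.06 to 3.12. The excess of 3' over 5' signal, a measure related to RNA integrity, was 0.53 to 0.77 in REC-1 and 1.11 to 1.12 in Z138 for ACTB. For GAPDH it was -0.32 to -0.31 in REC-1 and -0.28 to -0.24 in Z138. The part of either in the line differences was not tested. Of 6 measured B-cell markers 5 were kept, with MS4A1 (CD20) at 11.74 to 12.03 and PAX5 at 6.23 to 6.38. TCL1A was not kept. CD79A, CD79B and CD37 were brighter in REC-1. CD37 differed most, at 9.66 and 10.14 in REC-1 and 5.43 and 4.49 in Z138, control before CC-292. CCND1 was at 11.83 to 11.95, whereas CD5, a usual MCL antigen, stayed at 4.04 or below and was not kept. None of 6 myeloid and none of 4 endothelial markers was kept. Of 6 T-cell markers 4 were kept, the brightest being CD3G at 6.07 on the Z138 CC-292 array. The summed log2 levels of the T-cell markers ran from 24.54 to 26.04 over the 4 arrays and those of the B-cell markers from 44.99 in Z138 with CC-292 to 54.69 in REC-1 with CC-292.

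**Figure D1:**
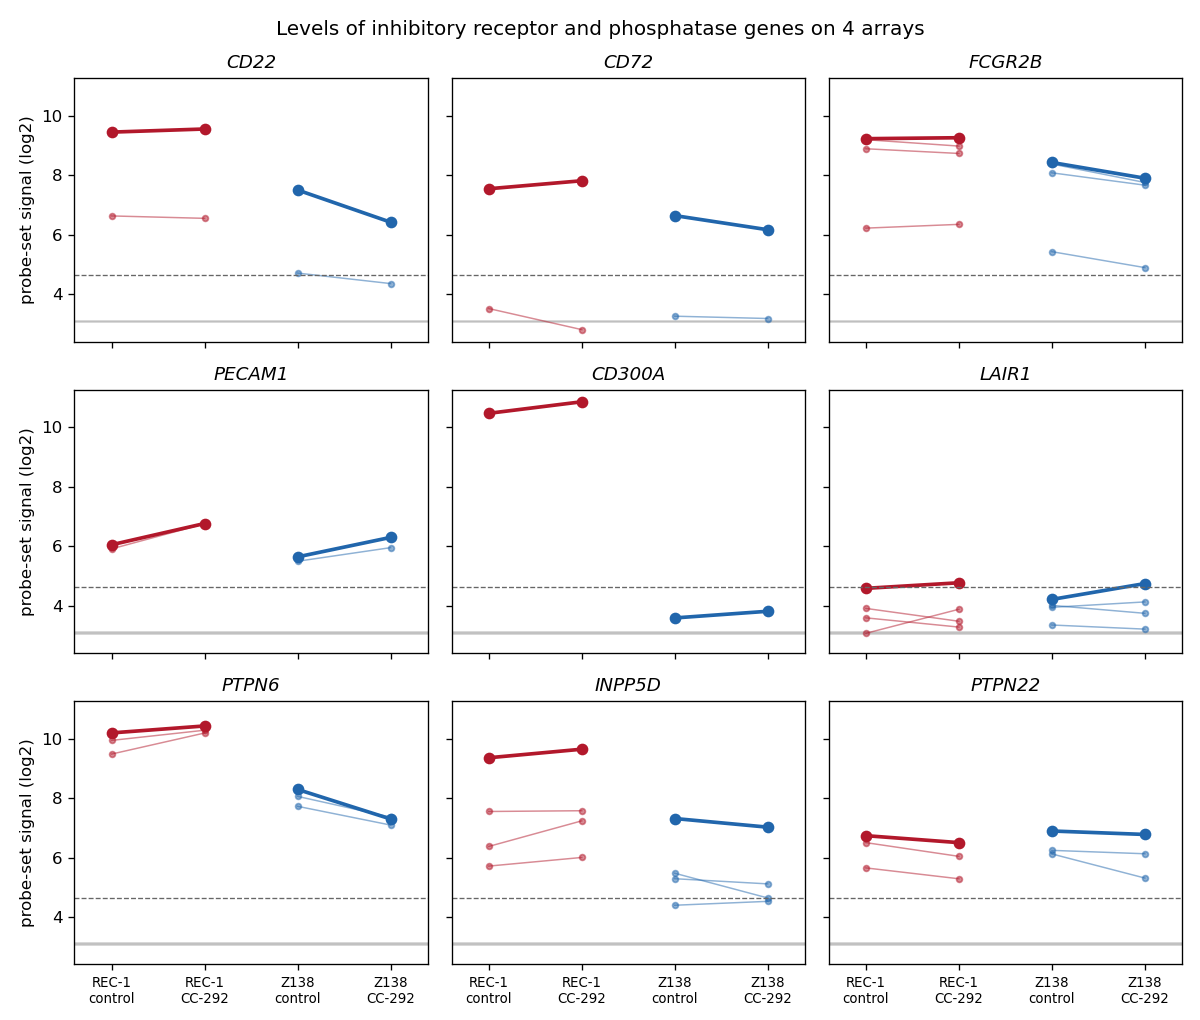
Log2 signal of every probe set of the 9 genes (vertical axis) on the 4 arrays (horizontal axis), REC-1 in red and Z138 in blue, with the brightest probe set of each gene drawn thick. The dashed line is the brightness minimum of 4.63 and the grey band the medians of the background probes. CD300A lies above 10 in REC-1 and below the minimum in Z138, CD22 and PTPN6 slope down in Z138 and not in REC-1 on their brightest probe sets, and PECAM1 slopes up in both lines.

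The first comparison asked how untreated REC-1 and Z138 cells differ in these genes. Most of them had a higher signal in untreated REC-1 cells. CD300A was at least 57.4-fold brighter in REC-1, and INPP5D, CD22 and PTPN6 were 4.13-fold, 3.86-fold and 3.74-fold brighter. CD72 and FCGR2B were higher by less than 2-fold, and PECAM1, LAIR1 and PTPN22 differed by less than the pooled SD between probe sets. At least 2-fold differences between the controls were found for 4 of the 9 genes, all higher in REC-1, where 24.3% of all 10823 genes differed this much in either direction and 11.9% were higher in REC-1. These 4 were also past 3-fold, as 11.5% of all genes were. Among the 4, CD300A was kept only through its REC-1 arrays. At 1.5-fold the count was 6, where 43.9% of all genes differed this much and 22.2% were higher in REC-1. The median difference of the 9 genes was 0.90, against 0.02 over all genes, and both REC-1 arrays lay above both Z138 arrays for 6 of the 9 genes, as for 37.9% of all genes.

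Among the receptors, CD300A, which binds phospholipids exposed on dying cells, was measured by 1 probe set, 11724683_a_at. Its signal was 10.48 in untreated and 10.86 in treated REC-1 cells, against 3.59 and 3.81 in Z138. The lines did not overlap, and both Z138 values lay below the brightness minimum, near the background probes. Because the Z138 side is dim, the difference between controls is given as a lower bound, 5.84 or 57.4-fold with Z138 set at the brightness minimum.

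CD22, a lectin that binds sialic acid on neighbouring glycoproteins and damps the B-cell receptor, had a signal of 9.46 in untreated and 9.56 in treated REC-1 cells, against 7.51 and 6.43 in Z138 (probe set 11726290_a_at). Its second probe set, 11754830_a_at, read 6.64, 6.56, 4.71 and 4.36 in the same order. The REC-1 arrays were higher on both probe sets, and the difference between controls was 1.95 on the brightest (SD 0.02 over 2 probe sets).

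CD72, a receptor for the semaphorin CD100, had 7.55 and 7.82 in REC-1 and 6.65 and 6.17 in Z138, control before CC-292, a difference between controls of 0.90. Its second probe set stayed between 2.81 and 3.52 and carries no level. FCGR2B, the inhibitory IgG receptor and the main Fc gamma receptor of B cells, had 9.24 and 9.27 in REC-1 and 8.44 and 7.91 in Z138, a difference between controls of 0.80 (SD 0.01 over 4 probe sets). Thus CD72 and FCGR2B had the same order of arrays as CD22, over a narrower range. All 4 probe sets of FCGR2B are of kinds (s and x) that can also match transcripts of related genes. Among them the dimmest, 11741518_x_at, read 6.23, 6.35, 5.43 and 4.90 in the order of the arrays above. The 4 probe sets of the related FCGR2A read between 2.82 and 5.02. What FCGR2A contributes to the FCGR2B signal was not tested. FCGR2C has no probe set of its own symbol in the annotation used, so a share of its RNA in the FCGR2B signal was not tested.

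PECAM1 (CD31), an adhesion receptor that binds itself on other cells, had 6.05 and 6.77 in REC-1 and 5.64 and 6.30 in Z138, control before CC-292. Here the arrays were ordered by treatment rather than by line, with both CC-292 arrays above both controls, and the difference between controls was 0.41 (SD 0.01 over 2 probe sets). LAIR1, a receptor for collagen, was dim throughout. Its brightest probe set read 4.58 and 4.77 in REC-1 and 4.21 and 4.74 in Z138, the other 3 stayed at 4.13 or below, and the 4 probe sets did not agree in the direction of any difference. LAIR1 is therefore given no direction. The 3 probe sets of its decoy relative LAIR2 lay between 2.85 and 3.79.

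Among the phosphatases, PTPN6 had 10.20 and 10.44 in REC-1 and 8.30 and 7.30 in Z138, control before CC-292 (probe set 11739055_x_at). Its other probe sets read 9.95, 10.29, 8.06 and 7.37 (11726034_a_at) and 9.49, 10.20, 7.73 and 7.10 (11739054_a_at) in the same order. The lines did not overlap on any of the 3, and the difference between controls was 1.90 (SD 0.08 over 3 probe sets). INPP5D had 9.36 and 9.65 in REC-1 and 7.32 and 7.03 in Z138, a difference of 2.05. Its dimmer probe sets had 7.56, 6.38 and 5.72 in untreated REC-1 cells and 5.29, 5.48 and 4.40 in untreated Z138 cells. All 4 lay higher in REC-1 but differed in size, from 0.90 to 2.26 (SD 0.63). PTPN22, a tyrosine phosphatase that works with the kinase CSK, had 6.74 and 6.51 in REC-1 and 6.90 and 6.78 in Z138, so that its levels stayed within a narrow range on all 4 arrays. Its difference of -0.16 was smaller than the SD over its 3 probe sets, 0.37, and those probe sets lay on both sides of 0. Of the 6 genes with at least 2 kept probe sets, 5 had all of them on 1 side of 0 between the controls, the exception being PTPN22. Over all genes with at least 2 kept probe sets the share was 69.4%.

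Averaged over control and CC-292 arrays, the line difference could be tested with limma, with treatment as a term and 2 arrays per line. Of the 9 genes 6 passed an adjusted p of 0.05, all higher in REC-1, where 44.7% of all 10823 genes passed and 21.6% were higher in REC-1. The averages were 2.54 (SE 0.30) for CD22, 2.52 (SE 0.30) for PTPN6 and 2.33 (SE 0.20) for INPP5D, with adjusted p of 0.00187, 0.0021 and 0.000663 in limma. CD72 and FCGR2B, with narrower differences, had 1.28 (SE 0.22) and 1.08 (SE 0.20), with adjusted p of 0.00699 and 0.008 in limma. CD300A is counted among the 6, but it was kept only through its REC-1 arrays. Its test is therefore not read, and its size is only a bound. PECAM1 at 0.44 (SE 0.16) had an adjusted p of 0.0692 in limma, and passed with the mean of all probe sets (0.0227) or with the 70th percentile as brightness minimum (0.0343). LAIR1 and PTPN22 had adjusted p of 0.39 and 0.313 in limma. The error in this fit is not that between replicate cultures. It joins the spread between a gene's 2 CC-292 differences, with 1 degree of freedom, and a variance that limma estimates over all genes, weighted as 4.5. The adjusted p values rest largely on that shared variance. The fit compares these 2 lines only.

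The stretches upstream of the genes that differed most between the lines are shown because CD22, PTPN6, INPP5D and CD300A were together high in REC-1. They are the 250 bases before an annotated start in RefSeq (GRCh38.p14), on the strand of the gene, here the plus strand for every one. The table used has 12 such windows for 8 of the 9 genes, with 2 starts each for PTPN6, CD300A, FCGR2B and LAIR1. Both are shown for PTPN6 and the upstream one for CD300A. Capitals mark matches, on either strand, to GAGGAA (the core bound by PU.1 and Spi-B, ETS factors of B cells), CAGGTG (an E-box bound by E2A) or an NF-kB pattern (GGG and CC with any 5 bases between them). Matches to the NF-kB pattern overlap their own reverse-strand matches in places.
CD22 chr19:35328937-35329186: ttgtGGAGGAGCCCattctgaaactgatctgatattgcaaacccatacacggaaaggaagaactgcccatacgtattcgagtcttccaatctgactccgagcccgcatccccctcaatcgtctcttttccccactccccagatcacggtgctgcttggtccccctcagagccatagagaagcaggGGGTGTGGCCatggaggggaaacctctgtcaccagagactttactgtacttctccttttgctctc
PTPN6 upstream start chr12:6946327-6946576: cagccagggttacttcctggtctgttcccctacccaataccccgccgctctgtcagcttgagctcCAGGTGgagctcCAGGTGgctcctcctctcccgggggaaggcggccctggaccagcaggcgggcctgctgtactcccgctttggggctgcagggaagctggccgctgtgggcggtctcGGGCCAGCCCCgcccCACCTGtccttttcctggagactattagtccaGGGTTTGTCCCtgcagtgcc
PTPN6 downstream start chr12:6951106-6951355: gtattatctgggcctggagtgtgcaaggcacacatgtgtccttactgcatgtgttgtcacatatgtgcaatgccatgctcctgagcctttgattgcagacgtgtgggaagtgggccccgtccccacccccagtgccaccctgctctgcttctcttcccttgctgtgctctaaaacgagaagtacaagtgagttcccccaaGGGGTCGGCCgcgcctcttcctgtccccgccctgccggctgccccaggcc
INPP5D chr2:233060092-233060341: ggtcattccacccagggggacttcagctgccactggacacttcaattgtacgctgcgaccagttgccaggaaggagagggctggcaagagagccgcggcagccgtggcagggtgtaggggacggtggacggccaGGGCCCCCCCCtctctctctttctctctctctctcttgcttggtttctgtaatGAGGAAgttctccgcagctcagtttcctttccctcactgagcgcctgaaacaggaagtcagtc
CD300A chr17:74466123-74466372: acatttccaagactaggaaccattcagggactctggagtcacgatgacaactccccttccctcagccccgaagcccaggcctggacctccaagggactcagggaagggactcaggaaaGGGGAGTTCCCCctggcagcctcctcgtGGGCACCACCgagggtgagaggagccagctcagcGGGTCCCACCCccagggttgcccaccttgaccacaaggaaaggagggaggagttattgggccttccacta
Of the 12 windows, 6 held GAGGAA, 2 held CAGGTG, 9 held the NF-kB pattern and 0 held the octamer ATGCAAAT. The shares of all 35116 windows of the table that held them were 23.6%, 17.5%, 54.4% and 1.63%. The INPP5D window held 1 GAGGAA, whereas the CD22 window, both PTPN6 windows and the CD300A window shown held none. The upstream PTPN6 window held 3 matches to CAGGTG. A match is only a stretch of letters, and no binding was measured here.

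The second comparison asked what differed after CC-292 in each line. In Z138, CD22 and PTPN6 were lower on the CC-292 array, with differences of -1.08 and -0.99 on the log2 scale, and FCGR2B and CD72 were lower with -0.53 and -0.48. In REC-1 these 4 genes read 0.10, 0.23, 0.03 and 0.27, all within the pooled SD, and 8 of the 9 genes lay above 0. The 8 include LAIR1, which is given no direction. PECAM1 stood higher in both lines, at 0.72 in REC-1 and 0.66 in Z138. The CC-292 differences of both lines and the difference between controls share the control arrays, so they are given side by side and not as independent patterns.

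In Z138, 1 of the 9 genes, CD22, was at least 2-fold different, where 0.564% of all genes were and 0.351% were lower, and 3 (CD22, PTPN6 and PECAM1) were at least 1.5-fold different, where 4.7% were. None of the 9 was past 3-fold in Z138, nor was any other gene (0%). The median of the 9 genes was -0.29, against 0.01 over all genes, and 3 of 9 lay above 0, where 51.9% of all genes did. Of these 3, LAIR1 is given no direction and CD300A lay below the brightness minimum in Z138. In REC-1, 0 of the 9 genes were at least 2-fold different, where 1.6% of all genes were, and only PECAM1 was at least 1.5-fold different, where 9.05% were. Above 0 in REC-1 lay 8 of 9, where 42.1% of all genes did, and the 8 include LAIR1, which is given no direction. The REC-1 median was 0.23, against -0.05 over all genes. That median depends on the choice of probe set: averaging every probe set of a gene gave 0.064, and taking the median difference over them gave 0.012. For a gene with 2 probe sets these 2 summaries are the same.

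CD22 was the 25th lowest of 10823 genes in Z138. Its REC-1 control and CC-292 arrays differed by 0.10, and its 2 probe sets lay on both sides of 0 there. In Z138 both probe sets were lower, at -1.08 and -0.35 (SD 0.52), and the mean of -0.72 does not reach 2-fold. The second Z138 probe set is dim, at 4.71 untreated and 4.36 treated, the latter below the brightness minimum.

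PTPN6 was the 39th lowest gene in Z138. The 3 probe sets read -0.99, -0.70 and -0.63 (SD 0.19), so they agreed in direction, and none reached 2-fold. After quantile normalization or cyclic loess of the arrays the brightest did, with -1.02 in the latter. In REC-1 the same probe sets read 0.23, 0.34 and 0.71 (SD 0.25), all higher on the CC-292 array. INPP5D read 0.29 in REC-1 (SD 0.35 over 4 probe sets, all above 0) and -0.29 in Z138 (SD 0.40, 3 of 4 below 0). Its probe set above 0 in Z138, 11733123_s_at at 0.13, read 4.40 and 4.53 there, both below the brightness minimum. Probe set 11744363_s_at of INPP5D stood furthest out, at 0.86 and -0.83. PTPN22 lay below 0 on all 3 probe sets in both lines, at -0.23 in REC-1 (SD 0.11) and -0.12 in Z138 (SD 0.40). These sizes on the brightest probe set are within the pooled SD. The mean over the 3 was -0.35 in each line, past the pooled SD, with 11731972_a_at at -0.81 in Z138.

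**Figure D2:**
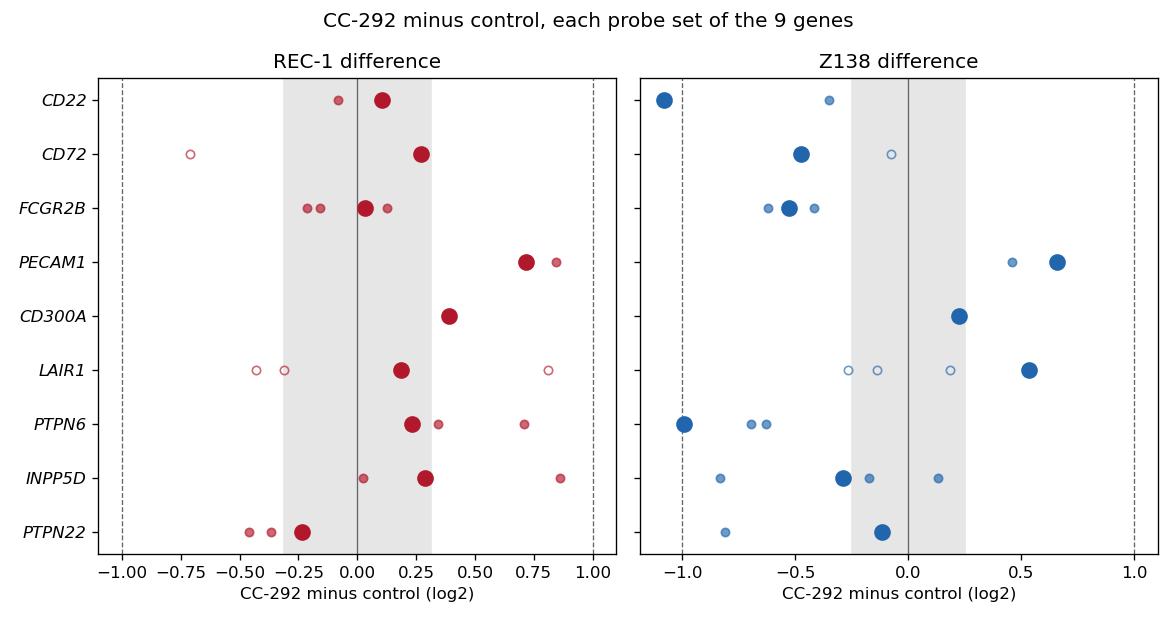
CC-292 minus control (log2, horizontal axis) for every probe set of the 9 genes (rows), REC-1 left and Z138 right, with horizontal axes of different range. Large points are the brightest probe sets, open points those below the brightness minimum on all arrays, the grey band is the pooled SD between probe sets and dashed lines mark 2-fold. In Z138 both CD22 points, the 3 PTPN6 points and the 4 FCGR2B points lie left of 0, while both PECAM1 points lie right of it in each line.

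The inhibitory IgG receptor gene FCGR2B had the smallest SD over probe sets in Z138. There all 4 lay between -0.62 and -0.42 (brightest -0.53, SD 0.08), against -0.22 to 0.13 in REC-1 (brightest 0.03, SD 0.16). CD72 read -0.48 in Z138 and 0.27 in REC-1 on its single kept probe set. CD300A read 0.39 in REC-1, where it is bright, and 0.22 in Z138, where both values are below the brightness minimum and the difference carries no level. PECAM1 was the 281st highest gene in REC-1 (SD 0.09 over 2 probe sets) and the 159th highest in Z138 (SD 0.14 over 2 probe sets). PECAM1 is also expressed by endothelial cells, and 0 of 4 endothelial markers reached the brightness minimum. Below it, VWF read 3.45 and 4.50 in REC-1 and 4.27 and 3.76 in Z138, control before CC-292. CDH5 read 2.98 and 3.03 in REC-1 and 3.02 and 3.76 in Z138. The summed log2 level of the 4 markers was 13.37 and 14.10 in REC-1 and 14.61 and 14.83 in Z138, and its part in the PECAM1 difference was not tested.

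For CD22, CD72, FCGR2B, PTPN6 and INPP5D the brightest probe set was higher in REC-1 and lower in Z138 after CC-292. The reverse pattern was found for 0 of the 9 genes and for 31.4% of all genes. The pattern of these 5 of the 9 genes was found for 21.6% of all genes. The REC-1 difference minus the Z138 difference reached 2-fold for 2 of them, PTPN6 at 1.23 (SD 0.15 over 3 probe sets) and CD22 at 1.19 (SD 0.65 over 2 probe sets), where 4.11% of all genes did. At 1.5-fold CD72 made it 3 genes, where 16.5% of all genes did, and at 3-fold there were 0, where 0.443% did. With these differences, 5 of the 9 genes had their lowest level on the Z138 CC-292 array, as 23.9% of all genes did. On the REC-1 CC-292 array 8 had their highest, as 22.5% of all genes did, and the 8 include the dim LAIR1. All probe sets of a gene lay on 1 side of 0 for 4 of 6 genes in REC-1, where CD22 and FCGR2B were split. In Z138 they did for 5 of 6, and INPP5D was split by a probe set below the brightness minimum there. Over all genes the shares were 41.7% and 39.2%.

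**Figure D3:**
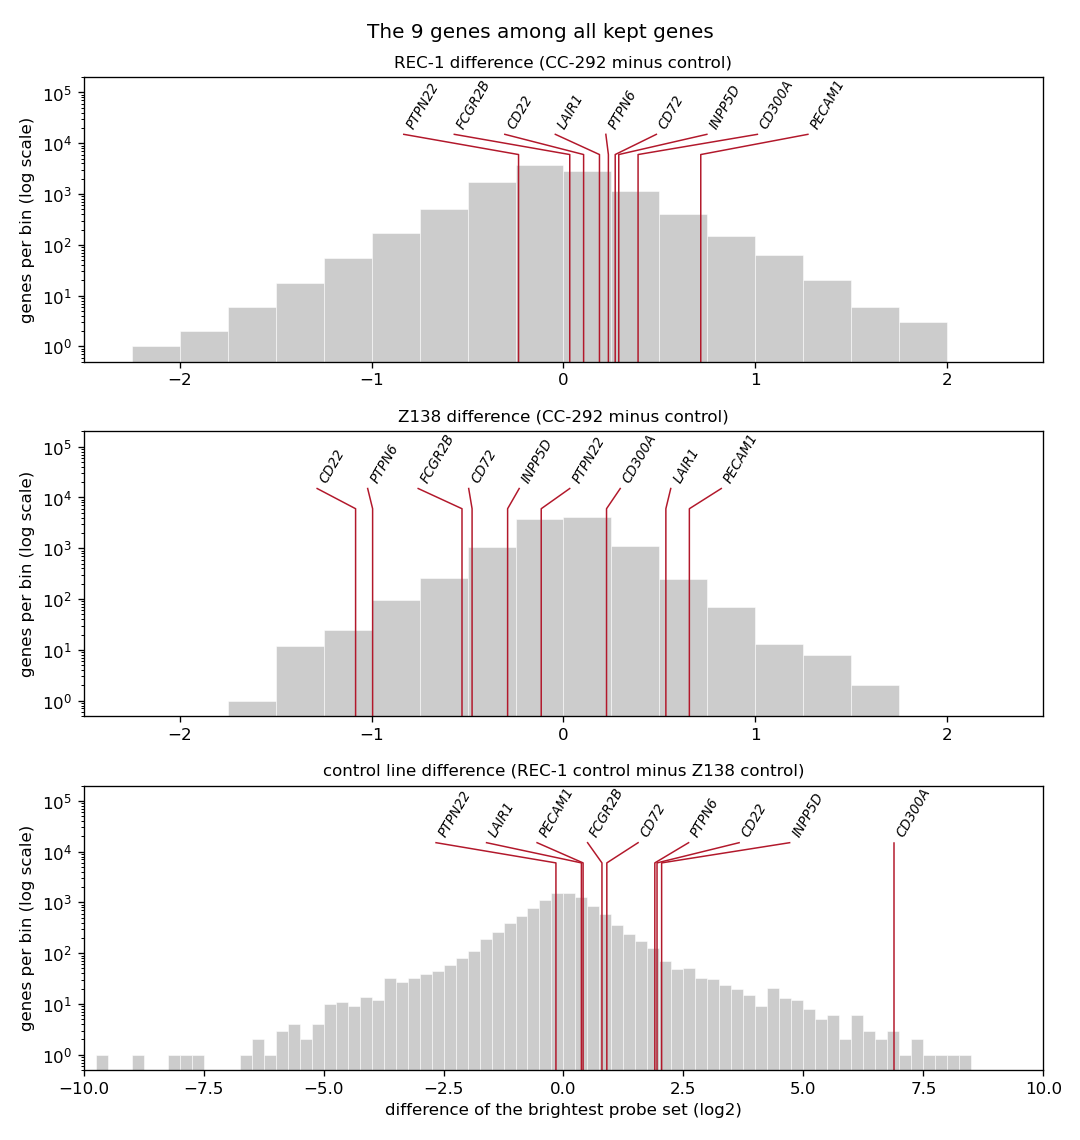
Histograms of the difference of the brightest probe set (log2, horizontal axis; bins of 0.25) over all 10823 kept genes, with the number of genes per bin on a log axis, for the REC-1, Z138 and control comparisons. Red lines mark the 9 genes, and the horizontal axis of the lowest panel is wider. CD22 and PTPN6 lie in the lower tail in Z138, and CD300A in the upper tail between the controls.

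For CC-292, limma tested the average of both lines on all 10823 genes, with the cell line as a block, so that control and CC-292 arrays were paired within a line. No gene passed a Benjamini-Hochberg adjusted p of 0.05 in limma (0%), where 472 (4.36%) had an unadjusted p under 0.05. PECAM1 was the only one of the 9 genes among those 472, with an average of 0.69 (SE 0.16), an adjusted p of 0.9999 in limma and a higher level after CC-292 in both lines. The averages of CD22 and PTPN6 were -0.49 (SE 0.30) and -0.38 (SE 0.30). Those of CD72, FCGR2B, INPP5D and PTPN22 lay between -0.25 and 0.00. No average is read for LAIR1, which passed the brightness minimum only through its CC-292 arrays, or for CD300A, which is below it in Z138. In this fit a difference between the lines counts as error, which is why the SEs of CD22 and PTPN6 are the largest of the 9.

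The partners of these genes were followed in 6 lists of related genes. For CC-292, none of their kept genes reached a 2-fold difference in either line. Over all genes 1.6% did in REC-1 and 0.564% in Z138. The activating B-cell receptor complex had 11 of 12 kept genes above 0 in REC-1 (median 0.21), where 42.1% of all genes were, and 3 of 12 in Z138 (median -0.18), where 51.9% were. Its co-receptor subunit CD81 read 0.15 and 0.00, and PIK3CD, the PI3K catalytic subunit of lymphocytes, 0.26 and -0.17. Adaptors, kinases and ubiquitin ligases that serve inhibitory signals had medians of -0.02 in REC-1 (8 of 17 above 0) and -0.16 in Z138 (7 of 17 above 0). LYN, the kinase that phosphorylates the inhibitory tails, read 0.02 in REC-1 and -0.23 in Z138 (SD 0.17 and 0.10 over 3 probe sets), and CSK, the partner of PTPN22, -0.03 and -0.29 (SD 0.24 and 0.11 over 4 probe sets). Other phosphatases had medians of -0.10 (7 of 18 above 0) and -0.04 (4 of 18), among them PTPRC (CD45), which keeps LYN active, at 0.39 and -0.54 (SD 0.23 and 0.09 over 5 probe sets).

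Ligands of the receptors and the enzymes that make them had medians of -0.02 in REC-1 and 0.04 in Z138 over 12 kept genes. Of these, PECAM1 is also a receptor of the set, and CD47 is a ligand of SIRPA, a receptor outside it. Other inhibitory receptors were mostly dim, and 7 of 20 measured ones were kept, with medians of 0.16 in REC-1 and -0.02 in Z138. Among them SIRPA, which binds CD47, read -0.98 and 0.54 on 1 probe set, within levels of 4.11 to 5.12. Of the Fc receptor list only FCER2, FCRLA and FCMR were kept, none of which binds IgG at the cell surface as FCGR2B does, with FCRLA at -0.62 in REC-1 and -0.30 in Z138 (SD 0.10 and 0.07 over 4 probe sets).

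Between the untreated lines, 10 of 17 kept adaptors, kinases and ubiquitin ligases were at least 2-fold higher in REC-1 and 1 was lower (median 1.61). Of all genes 11.9% were at least 2-fold higher in REC-1 and 12.4% lower. Where 1 untreated line lay below the brightness minimum, the fold is a lower bound with that line set at the minimum. LAX1 and GAB2, both among the 10, lay below it in untreated and treated Z138 cells and were kept only through their REC-1 arrays. The higher genes included LYN at 2.55 (SD 0.14 over 3 probe sets) and the adaptors SLA at 3.96 (SD 1.48 over 4 probe sets) and LAX1, at least 8.22-fold. The Src-family kinase gene FGR was higher in Z138, at least 2.17-fold, and the adaptor gene DOK1 read -0.89. FGR, the 1 lower gene, was kept only through its Z138 arrays. CSK differed by 0.57 (SD 0.08 over 4 probe sets). Of the activating complex 6 of 12 genes were at least 2-fold higher in REC-1 and 0 lower (median 1.00). The complement receptor gene CR2, at least 32.4-fold higher, is among the 6 but was kept only through its REC-1 arrays. The kinase gene PRKCB read 4.72 (SD 0.89 over 3 probe sets), whereas CD81 read -0.76 and PIK3CD 0.01.

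Of the other phosphatases 5 of 18 were at least 2-fold higher in REC-1 and 1 lower as measured (median 0.27), where 11.9% and 12.4% of all genes were. PTPRCAP, which encodes a protein that associates with CD45, was at least 24.3-fold higher in REC-1, and PTPRC read 1.95 (SD 0.20 over 5 probe sets). PTPRCAP is among the 5 but was kept only through its REC-1 arrays, and PTPRO, the 1 lower gene, only through its Z138 arrays. The receptor phosphatase gene PTPRO was at least 1.8-fold higher in Z138 (SD 0.51 over 3 probe sets on the log2 scale), and the inositol phosphatase gene INPP5A read -0.96 (SD 0.15 over 4 probe sets). Other inhibitory receptors ran both ways. PILRA was at least 5.74-fold and KLRG1 at least 1.99-fold higher in Z138, and both were kept only through their Z138 arrays. CEACAM1 was 2.82-fold higher in REC-1 (SD 0.58 over 9 probe sets on the log2 scale) and SIRPA at least 1.37-fold higher there. In the ligand list, CD47, which SIRPA binds and which is listed though SIRPA is not 1 of the 9 genes, read 2.18 (SD 0.56 over 3 probe sets). CMAS, which activates sialic acid for the glycans that CD22 binds, read 0.90 (SD 0.02 over 2 probe sets). COL1A1, a collagen gene, was at least 1.46-fold higher in Z138, and the sialic acid synthase gene NANS read -0.31. Of the Fc receptor list FCMR, the IgM receptor, read 2.07 (SD 0.45 over 5 probe sets), FCER2 (CD23) -0.91 and FCRLA -0.68 (mean -0.05 over 4 probe sets).

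**Figure D4:**
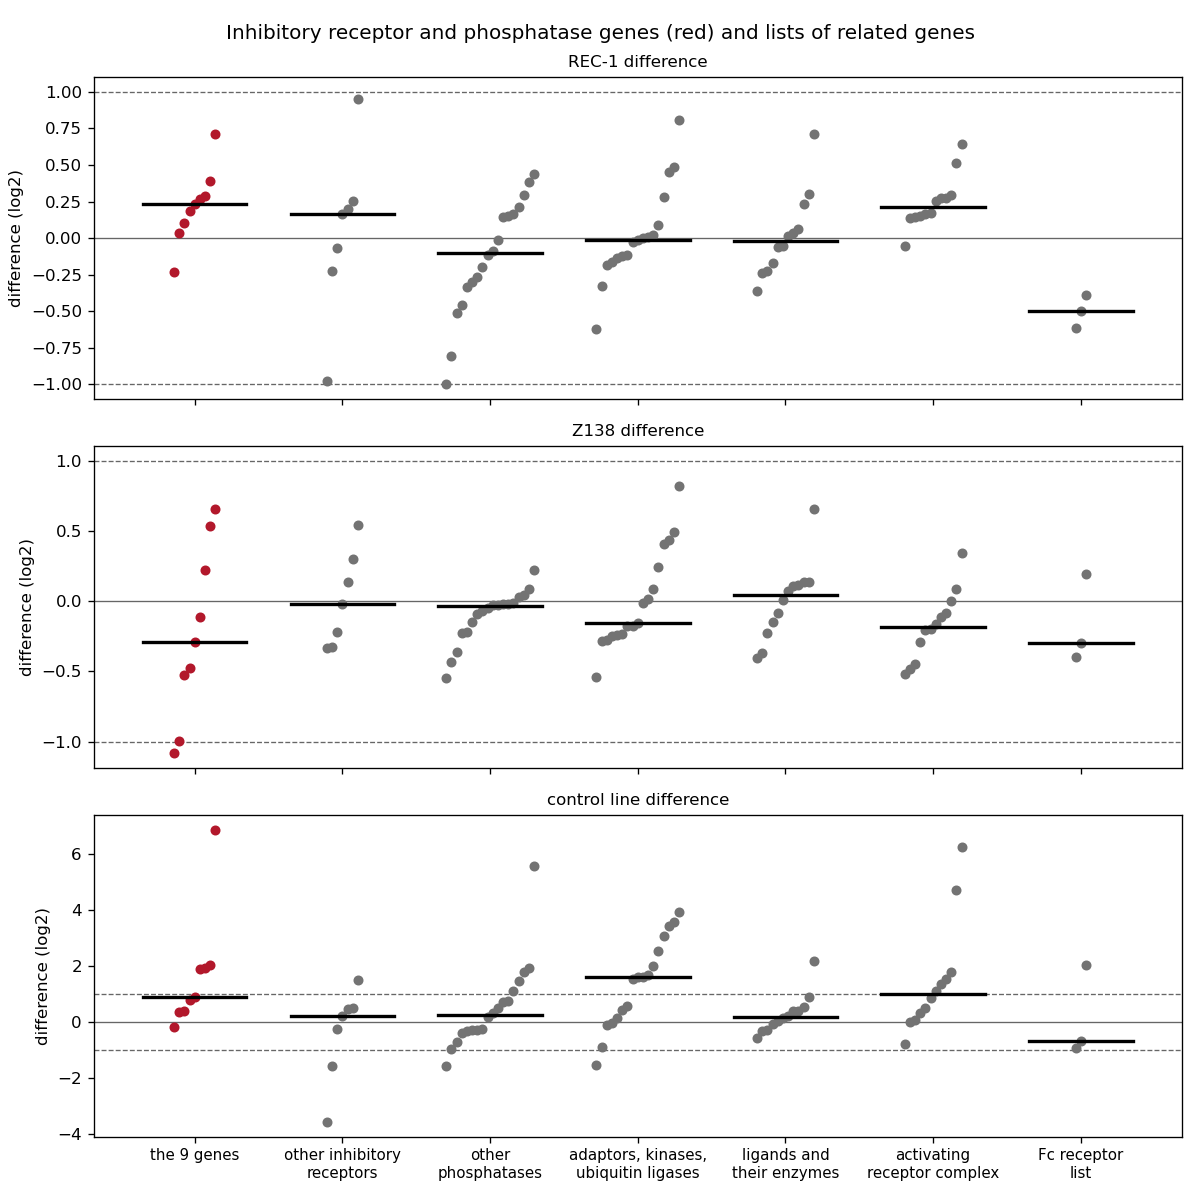
Difference of the brightest probe set (log2, vertical axis) for the 9 inhibitory receptor and phosphatase genes (red) and the kept genes of 6 lists of related genes (grey), within REC-1, within Z138 and between controls, with vertical axes of different range. Black bars are medians and dashed lines mark 2-fold. The medians of the 9 genes and of the activating complex lie above 0 in REC-1, below 0 in Z138 and near 1 between the controls, and PECAM1 appears both in red and among the ligands.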

How the data were processed

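RNA of 4 cultures was measured on Affymetrix expression arrays, 1 per group. The labels' protocols name Trizol for extraction and 150 ng of RNA as input. The authors deposited signals on a log2 scale. RMA and Affymetrix Expression Console 1.1 are the tools that the submitters' processing notes list; settings: not given in the sources used here. The log2 scale was inferred from their range, 2.18 to 14.26. RMA usually equalises the distribution of arrays, so a shift of most genes one way would not show. The number of arrays limits the precision.

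Probe sets with 1 symbol (45259) were used, those with several (1327) or none (2800) were left out, and 45178 symbols matched RefSeq by Entrez identifier. No probe set of the 9 genes carried a further symbol. Differences were taken per probe set and for the brightest one. The average over both lines was fitted with limma 3.58.1 in R 4.3.3 (lmFit, eBayes, Benjamini-Hochberg), tested on simulated data. The simulation gave all genes the same noise and each changed gene the same CC-292 effect in both lines. It therefore does not show how many changed genes the fit would find in these arrays. The average line difference over both treatments, from the same additive model, was added after the data were seen. Python 3.11.15, pandas 2.3.3, numpy 2.4.6 and matplotlib 3.10.9 were used. The 9 genes and the 6 lists were chosen with earlier results of these data known. Named from the lists were the 2 highest and 2 lowest genes between controls, genes 2-fold different after CC-292 (none was), LYN and CSK; PTPRC, CD81, PIK3CD, SIRPA and FCRLA are also given for CC-292. Alternatives were 2 other summaries of probe sets, 2 other brightness minimums (none, and the 70th percentile), 3 scalings, 2 other folds (1.5 and 3), and limma with an intensity trend or without the block.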

Additional observations from a re-analysis of the deposited data

Results flagged for a closer look

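For 5 of the 9 genes the brightest probe set was higher after CC-292 in REC-1 and lower in Z138, so that the lines had opposite signs. Of all genes 21.6% had this pattern. The reverse, lower in REC-1 and higher in Z138, was found for 31.4% of all genes and 0 of the 9. With 1 array per group the difference between the lines was not tested. The REC-1 difference minus the Z138 difference was 1.23 for PTPN6 (0.23 and -0.99), 1.19 for CD22 (0.10 and -1.08), 0.75 for CD72 (0.27 and -0.48), 0.58 for INPP5D (0.29 and -0.29) and 0.56 for FCGR2B (0.03 and -0.53). The REC-1 values of CD22 and FCGR2B are close to 0 and their probe sets lie on both sides of it, and the REC-1 value of CD72 rests on 1 probe set; with the dim second one averaged in, its 0.75 becomes 0.057.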

How the results depend on the processing

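The labels give no replicate numbers, and pairing was by cell line only. Centring, quantile normalization and cyclic loess turned the sign of no difference of the 9 genes and shifted none by more than 0.0846. The choice of probe set mattered more. With the mean of all probe sets the REC-1 difference turned to -0.22 for CD72 and -0.054 for FCGR2B, and the control difference of LAIR1 to -0.091. With the median difference over a gene's probe sets these were -0.22, -0.063 and -0.023, and the REC-1 difference of LAIR1 was -0.062. For CD72, with 2 probe sets, mean and median are the same. Of the 9 genes, 1 was at least 2-fold different in Z138, but 0 with the mean or the median over probe sets. With quantile normalization or cyclic loess, which add PTPN6, it was 2. At 1.5-fold the counts were 1 in REC-1 and 3 in Z138, and at 3-fold 0 in Z138 and 0 for the difference of differences. At 2-fold that last count was 2, and 1 with the mean or the median over probe sets. At the 70th percentile of brightness LAIR1 dropped out and the median control difference was 1.40. Under 9 alternatives of the limma fit 0 of the 9 genes passed an adjusted p of 0.05; without the block for the cell line PECAM1 also lost its unadjusted call, and with an intensity trend 3 of the 9 had one. The line difference over both treatments, tested after seeing the data, passed for 6 of the 9 genes, where 44.7% of all genes passed. Under 8 alternatives it passed for 6 of 9, or for 7 where 8 of the genes were kept. CD300A, whose test is not read, is counted each time. One array per group leaves the error between cultures unknown, so no difference within a line is shown to exceed it.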
